A study of Mus musculus with 12 samples.

Results

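The transcripts described here encode 10 small calcium-binding or calmodulin-binding proteins of neurons, chosen by name from the 56941 genes of the count tables. The calcium buffers were Calb1 (calbindin), Calb2 (calretinin) and Pvalb (parvalbumin). Pcp4 encodes Purkinje cell protein 4, a small protein that binds calmodulin. The hippocalcin-type sensors were Hpca, Hpcal1, Hpcal4, Vsnl1, Ncald and Ncs1. No expression value was used to choose them, although they were picked with earlier results of these data known. All 10 passed the filter on low counts and were among the 20341 genes tested.

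Bulk RNA was sequenced from the cerebellum of 12 mice aged 16 weeks, 3 in each of 4 groups. SCA1 mice were heterozygous Atxn1 154Q/2Q knock-in animals, which carry a 154-glutamine tract in 1 endogenous ataxin-1 allele in every cell type that uses the gene. WT mice were C57BL/6J littermates. The WT sedentary group held mice 116, 117 and 192, the WT exercise group mice 121, 197 and 201, the SCA1 sedentary group mice 16, 194 and 195, and the SCA1 exercise group mice 55, 122 and 198. Exercise mice had free access to a running wheel for 12 weeks from 4 weeks of age and were housed alone, whereas sedentary mice were housed in groups, so wheel access and single housing cannot be told apart. Per the paper, wheels were taken out before behavioural testing, and tissue was collected after the last test. Below, mice with wheels are those of the exercise groups. The study used males and females, and the labels do not give the sex of each mouse.

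Neurons meet each rise in calcium with proteins of the EF-hand family, whose helix-loop-helix motif holds a calcium ion. Buffers such as calbindin and parvalbumin limit the height and length of a calcium signal, and sensors such as hippocalcin and neurocalcin expose a myristoyl group when calcium binds and move to membranes. Purkinje cells (PCs), the output neurons of the cerebellar cortex, are known for strong calbindin, parvalbumin and Pcp4 expression. Calretinin marks granule cells and unipolar brush cells, and parvalbumin is also used by molecular layer interneurons. In bulk tissue, fewer cells of a type and less RNA per cell cannot be told apart.

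On GRCm39 with GENCODE M39, Calb1 lies at chr4:15881155-15908085 on the plus strand, Calb2 at chr8:110864128-110894881 on the minus strand and Pvalb at chr15:78075314-78091149 on the minus strand. Pcp4 lies at chr16:96268806-96326997 on the plus strand. Of the sensors, Hpcal1 is at chr12:17739796-17841964 on the plus strand, Vsnl1 at chr12:11375161-11488178 on the minus strand, Hpca at chr4:129005306-129015916 on the minus strand and Hpcal4 at chr4:123076662-123088495 on the plus strand. Ncald spans chr15:37363739-37792843 on the minus strand and Ncs1 spans chr2:31135714-31188422 on the plus strand. Each value is a count over the exons of the whole gene. Pcp4 and Ncald share exon bases on their own strand with the gene models Gm49948 and Gm49397, and reads there cannot be assigned. Genes on the other strand overlap Hpca (Tmem54), Vsnl1 (Smc6) and Ncald (Gm28221 and Grhl2). Opposite-strand reads made up at most 1.68% of the reads of any of the 10 genes in any library, against 5.54% to 6.01% over all genes.

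The start regions of Pcp4 and Hpcal1, which fell in SCA1 sedentary cerebellum, and of Pvalb, which did not pass the test but did not overlap between the sedentary groups, are shown so that their sequences can be compared. RefSeq on GRCm38.p6, an older build than that of the counts, gave promoters of 7 of the 10 genes, each from 250 bases before to 50 after a transcription start. Calb1, Calb2 and Ncald had no entry. Capitals mark AGGTCA, the core site of Rora-type nuclear receptors, searched on both strands, which reads TGACCT on the printed strand of Pcp4.
Pcp4, chr16:96467356-96467655, plus strand: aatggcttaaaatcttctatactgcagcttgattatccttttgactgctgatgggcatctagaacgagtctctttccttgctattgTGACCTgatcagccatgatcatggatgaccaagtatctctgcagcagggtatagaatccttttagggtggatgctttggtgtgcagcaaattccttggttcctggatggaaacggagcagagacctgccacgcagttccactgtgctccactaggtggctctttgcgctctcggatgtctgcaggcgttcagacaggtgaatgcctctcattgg
Hpcal1, chr12:17690559-17690858, plus strand: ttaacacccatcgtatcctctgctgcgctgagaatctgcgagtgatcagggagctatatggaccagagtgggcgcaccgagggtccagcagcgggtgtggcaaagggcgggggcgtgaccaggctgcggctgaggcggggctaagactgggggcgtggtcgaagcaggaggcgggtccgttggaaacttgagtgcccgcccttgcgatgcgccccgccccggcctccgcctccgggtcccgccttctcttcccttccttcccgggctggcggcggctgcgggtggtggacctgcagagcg
Pvalb, first of 2 entries, chr15:78206351-78206650, minus strand: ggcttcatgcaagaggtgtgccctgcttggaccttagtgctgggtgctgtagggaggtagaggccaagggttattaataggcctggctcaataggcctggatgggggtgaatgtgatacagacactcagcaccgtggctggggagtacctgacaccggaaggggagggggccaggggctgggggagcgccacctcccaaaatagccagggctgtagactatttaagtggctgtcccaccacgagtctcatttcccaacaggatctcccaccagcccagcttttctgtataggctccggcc
AGGTCA was present in the Pcp4 sequence, beginning at base 87 of the printed run on the opposite strand, in Hpcal4 and in 1 of the 3 Hpca entries, and was absent from these letters in Hpcal1, Pvalb, Vsnl1 and Ncs1. Of all 32851 promoters, 16.3% held it. The octamers TGAATGAA and TGAATGGA, bound by the ataxin-1 partner Capicua, were searched on both strands. They were found in no entry of the 7 genes that had one, against 2.47% of all promoters, and Calb1, Calb2 and Ncald could not be searched. The 3 printed windows differed in base composition, with 48.7% G and C and 6 CpG in Pcp4, 68.3% and 27 CpG in Hpcal1 and 58.3% and 5 CpG in Pvalb, beside medians of 52.7% and 7 over all promoters. A match is a description of the letters and not a site of binding.

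Counts on the reverse strand, the strand of the transcripts in these libraries, totalled 20556802 to 32127508 per library. Each gene was scaled to counts per 1000000 reads (CPM) with TMM library sizes. Pcp4 was the thinnest of the 10 with 235 to 813 reads per library, and Calb1 the deepest with 7984 to 20085. Atxn1 itself was at 172 ± 17.9 CPM in SCA1 sedentary mice against 153 ± 8.28 in their WT counterparts, and at 175 ± 24.3 against 166 ± 6.05 CPM with wheels (mean ± SD, n = 3 each). Its 2 alleles are not separated in these counts.

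Mice 16 (SCA1 sedentary) and 55 (SCA1 exercise) stood apart from the other 10. Read pairs that mapped to several places made up 6.38% and 6.33% of their libraries, against 2.08% to 3.46% elsewhere. Of 6 brainstem and midbrain markers 4 passed the count filter (Hoxa4 and Slc6a3 did not), and their summed level was 28.7 and 27.2 CPM in these mice and 2.65 to 10.3 in the others. Hoxb5, a gene of the posterior hindbrain and spinal cord, was at 8.33 and 9.92 CPM, against 0 to 0.970 elsewhere. The 4 oligodendrocyte markers summed to 5695 and 4488 CPM against 1986 to 3324, and the 7 granule cell markers to 2490 and 3181 CPM against 4361 to 5084. The 8 markers of molecular layer interneurons and Golgi cells summed to 984 and 1116 CPM against 736 to 924, and the 4 microglia markers to 90.0 and 69.6 against 44.8 to 58.8. The libraries of these mice differed from the rest in the makeup of the tissue markers as well as in mapping, and the values of the 10 genes and of the lists that these mice moved most are also given without them. For the lists, this setting was chosen after seeing the data.

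Hpca, Hpcal4, Ncs1 and Vsnl1 were higher in both of these mice than in any of the other 10, which held for 17.1% of all genes. Hpcal4 was at 83.0 CPM in mouse 16 and 51.8 in mouse 55 while the others ranged from 25.4 to 42.8. Hpca was at 70.5 and 52.5 CPM, against 27.6 to 40.9. Ncs1, which encodes neuronal calcium sensor 1, was at 349 and 249 CPM, against 146 to 189. These 3 sensors were thus 1.52 to 2.53 times the mean of the other mice, and Vsnl1 was 1.19 and 1.14 times that mean. No member was below all 10 others in both mice, which held for 13.9% of genes. The part of the tissue makeup in these values was not tested.

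Per kilobase of exon, the buffers led the set in WT sedentary cerebellum. Calb2 stood at 152 ± 19.1 CPM per kilobase, Pvalb at 91.4 ± 10.7 and Calb1 at 86.8 ± 9.20 (SD, n = 3). Pvalb and Calb1 differed by less than these SDs. Vsnl1 and Hpcal1 were the most abundant sensors at 73.3 ± 2.14 and 62.2 ± 1.18 CPM per kilobase, and Ncs1 followed at 24.3 ± 1.56. Pcp4 was at 21.7 ± 1.09 on the same scale. Ncald at 9.27 ± 0.722, Hpca at 7.09 ± 1.26 and Hpcal4 at 6.05 ± 1.13 formed the low end, and the last pair differed by less than their SDs. These levels depend on the exon length used for each gene, which covered all its annotated exons. Ncald had 17.265 kilobases of exon and was at 160 CPM, beside 176 CPM for Ncs1 with 7.253 kilobases. Reads in exon bases that Pcp4 and Ncald share with other gene models are not counted, which lowers both levels. The pooled SD of log2 CPM within groups was 0.10 for Hpcal1, 0.12 for Calb1 and 0.14 for Pcp4, against a median of 0.27 over all genes, and 0.45 for Hpcal4, 0.42 for Hpca and 0.39 for Ncs1.

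**Figure D1:**
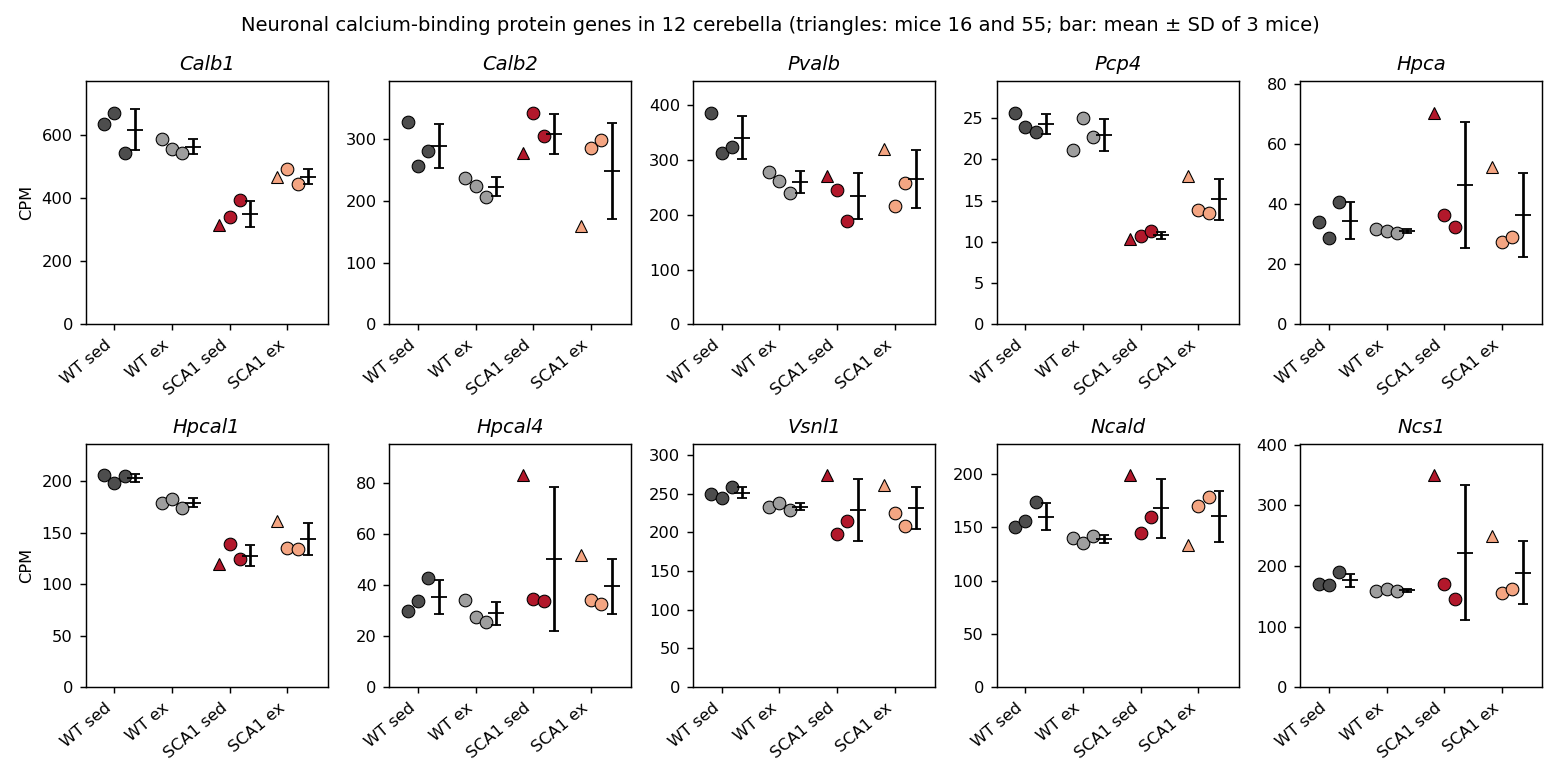
Each panel plots the TMM-scaled level of 1 gene in CPM (y axis, from 0) in each of the 12 mice, by group (x axis), with the mean ± SD of 3 mice beside the points and triangles for mice 16 and 55. Calb1, Pcp4 and Hpcal1 were below all WT sedentary and WT exercise mice in all 6 SCA1 mice, whereas the high Hpca, Hpcal4 and Ncs1 values were those of mice 16 and 55.

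The first comparison was that of genotype in sedentary mice. Of the 10 genes, 3 fell in SCA1 sedentary cerebellum: the calmodulin regulator Pcp4, the buffer Calb1 and the sensor Hpcal1. A differentially expressed gene (DEG) had a Benjamini-Hochberg adjusted p (p-adj) under 0.05 in edgeR's quasi-likelihood test over all genes and an absolute log2 fold change (log2FC) over 0.5. By this rule 7 of the 20341 genes (0.0344%) were DEGs. At an unadjusted p under 0.05 there were 4 of the 10, with Pvalb as the fourth, against 10.1% of all genes. The same 4 did not overlap between groups and were lower in every SCA1 sedentary mouse, against 5.76% of all genes, and no member lay entirely higher, against 5.6%. The median log2FC was -0.03 over the 10 genes and 0.02 over all genes.

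Pcp4 binds apocalmodulin and calcium-loaded calmodulin through an IQ motif and speeds the exchange of calcium. It was at 25.7, 23.9 and 23.3 CPM in WT sedentary mice 116, 117 and 192, and at 10.4, 10.7 and 11.3 CPM in SCA1 sedentary mice 16, 194 and 195. The groups did not overlap, and the SCA1 mean was 44.5% of the WT mean. The log2FC was -1.17 ± 0.13 (SE), with a p-adj of 0.0126. It had the smallest p of all genes tested.

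Calb1, the buffer that fills PC somata and dendrites, was at 634, 669 and 543 CPM in WT sedentary and at 315, 339 and 393 CPM in SCA1 sedentary mice. Every SCA1 sedentary mouse was lower than every WT sedentary mouse, with a group mean at 56.7% of that of WT. The log2FC was -0.82 ± 0.11 with a p-adj of 0.0398. Hpcal1, a visinin-like sensor that is strong in PCs, was at 206, 199 and 205 CPM in WT sedentary and 119.7, 139 and 124 CPM in SCA1 sedentary mice. Its values spread little within groups and were separate between them, with an SCA1 mean at 62.9% of that of WT. The log2FC was -0.67 ± 0.10 with a p-adj of 0.0418.

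Pvalb, the buffer of PCs and inhibitory interneurons, was at 386, 313 and 323 CPM in WT sedentary and 270.4, 245 and 189 CPM in SCA1 sedentary mice. The groups did not overlap, but the log2FC of -0.54 ± 0.16 had a p-adj of 0.297 and did not pass. Without mice 16 and 55 it was -0.63 ± 0.13 with a p-adj of 0.0322. In that fit Pvalb joined the other 3 as a DEG, among 205 DEGs in all genes. Calb2, the third buffer, was at 328, 257 and 281 CPM in WT sedentary and 278, 342 and 305 CPM in SCA1 sedentary mice. These ranges overlapped, and its log2FC was 0.10 ± 0.20 (p-adj 0.903).

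The other 5 sensors did not pass the test in sedentary mice. Vsnl1 (visinin-like 1, used by many neurons) was at 250.1, 245 and 259 CPM in WT sedentary and 273, 198 and 215 CPM in SCA1 sedentary mice, with a log2FC of -0.14 ± 0.12. Ncald (neurocalcin delta) was at 150.03, 156 and 174 CPM against 199, 145 and 159.7 CPM, with a log2FC of 0.07 ± 0.13. In both genes mouse 16 was the highest of all 12 mice and the other SCA1 sedentary mice were within or below the WT sedentary range. Hpca (hippocalcin) was at 34.1, 28.6 and 40.9 CPM against 70.5, 36.4 and 32.4 CPM, with a log2FC of 0.43 ± 0.29. Hpcal4 was at 29.8, 33.7 and 42.8 CPM against 83.0, 34.5 and 33.7 CPM, with a log2FC of 0.51 ± 0.31. Ncs1 was at 169.8, 169 and 189 CPM against 349, 169 and 146 CPM, with a log2FC of 0.33 ± 0.27. The high SCA1 value of these 3 genes was that of mouse 16 alone. Without mice 16 and 55 the log2FC was 0.01 for Hpca, -0.03 for Hpcal4, -0.05 for Ncald and -0.14 for Ncs1, so that 3 of the 4 turned. Vsnl1 was at -0.27 ± 0.08 in that fit, with a p-adj of 0.0969, and was not called.

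**Figure D2:**
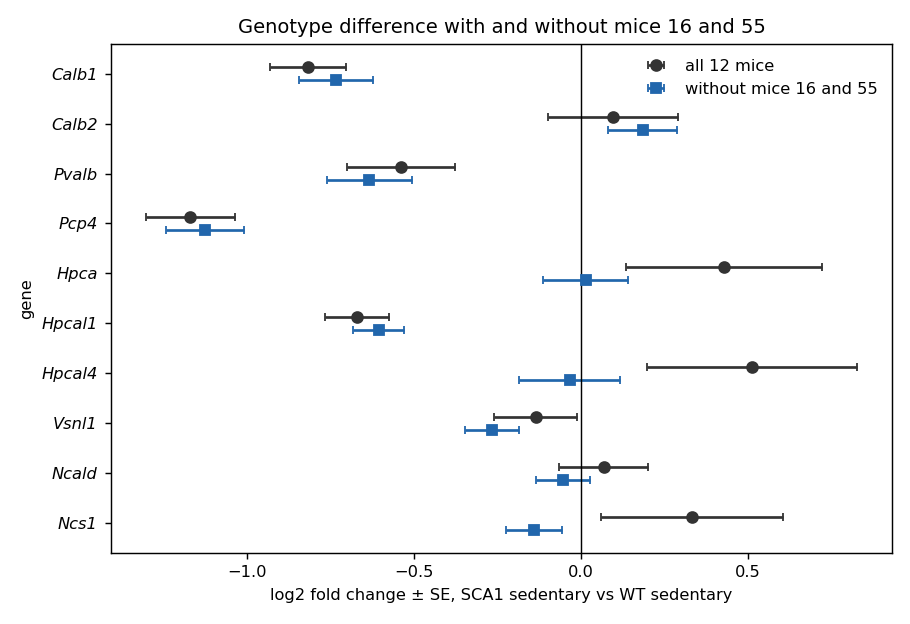
Log2 fold change ± SE (x axis) of each gene (y axis) for SCA1 sedentary against WT sedentary mice in the model of all 12 mice (black circles) and without mice 16 and 55 (blue squares). Pcp4, Calb1, Hpcal1 and Pvalb stayed left of 0 in both, while Hpcal4 went from 0.51 to -0.03 and Ncs1 from 0.33 to -0.14.

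The 3 calls in sedentary mice depended on the model. When the summed chromosome Y expression was added as a covariate, p-adj was 0.0673 for Calb1, 0.0514 for Pcp4 and 0.0666 for Hpcal1, and with the 2 groups fitted alone it was 0.339, 0.196 and 0.332. Leaving out WT sedentary mouse 116 or 117 also ended all 3 calls, with p-adj up to 0.308 for Calb1, 0.0797 for Pcp4 and 0.272 for Hpcal1. Pcp4 was called without any other single mouse, while leaving out mouse 121, 122, 197, 198 or 201 ended the calls of both Calb1 and Hpcal1, mouse 194 that of Calb1, and mouse 192 or 195 that of Hpcal1. The log2FC moved little in the first 2 of these fits, to between -0.67 and -0.81 for Calb1 and Hpcal1 and between -1.16 and -1.18 for Pcp4. Unstranded counts ended the call of Hpcal1 alone (p-adj 0.0590). The remaining fits kept all 3 calls. In DESeq2 the p-adj was 1.12e-07 for Calb1, 8.36e-12 for Pcp4 and 9.98e-07 for Hpcal1. Without mice 16 and 55 it was 0.00858, 0.000957 and 0.00365 in edgeR. The log2 of the summed CPM of the chromosome Y genes was 3.73 to 4.79 in 4 mice and 7.79 to 8.15 in the other 8. It was high in 3 of 3 WT sedentary and 2 of 3 SCA1 sedentary mice. With wheels it was high in 2 of 3 WT and 1 of 3 SCA1 mice.

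Among exercise mice the same comparison of genotypes gave no DEG among the 10 and none in all genes (0%). Unadjusted p was under 0.05 for 596 genes (2.93%), and DESeq2 called 3. An unadjusted p under 0.05 was found for 3 members, Pcp4, Hpcal1 and Calb1. They were also the 3 whose SCA1 exercise mice lay entirely below WT exercise mice, against 6.92% of all genes, and no member lay entirely above, against 7.32%. Pcp4 was at 21.1, 24.99 and 22.7 CPM in WT exercise mice 121, 197 and 201 and at 18.02, 13.9 and 13.5 CPM in SCA1 exercise mice 55, 122 and 198. Its log2FC of -0.60 ± 0.13 had the third smallest p of all genes in edgeR (0.000621), with a p-adj of 0.960. Without mice 16 and 55 the log2FC was -0.73 ± 0.11 with a p-adj of 0.0189. Pcp4 was then among 37 DEGs of all genes in this comparison.

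Hpcal1 was at 179, 183 and 175 CPM in WT exercise and 162, 136 and 134 CPM in SCA1 exercise mice, with a log2FC of -0.32 ± 0.10 and a p-adj of 0.960. Calb1 was at 587, 555 and 543 CPM against 466, 491 and 443 CPM, with a log2FC of -0.27 ± 0.11 and a p-adj of 0.960. Both genes were separate between genotypes, at smaller differences than in sedentary mice. Pvalb was at 279, 261 and 240.1 CPM in WT exercise and 321, 216 and 258 CPM in SCA1 exercise mice, so that the groups overlapped, with a log2FC of 0.03 ± 0.16. Calb2 was at 238, 224 and 207 CPM against 159, 286 and 299 CPM, with mouse 55 the lowest of all 12 mice and the other SCA1 exercise mice above every WT exercise mouse. Its log2FC was 0.16 ± 0.20, and 0.40 ± 0.10 without mice 16 and 55 (p-adj 0.242).

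The remaining sensors showed no separation between exercised genotypes. Hpca was at 31.8, 31.1 and 30.3 CPM in WT exercise and 52.5, 27.6 and 29.1 CPM in SCA1 exercise mice. Hpcal4 was at 34.1, 27.5 and 25.4 CPM against 51.8, 34.2 and 32.5 CPM, and Ncs1 at 158, 162 and 159 CPM against 249, 156 and 163 CPM. Mouse 55 was again the highest of its group in all 3. Vsnl1 was at 232, 238 and 229 CPM against 261, 225 and 208 CPM. Ncald was at 139.6, 135 and 142 CPM against 133, 169.8 and 178 CPM, where mouse 55 was the lowest of its group. The log2FC of these 5 ran from -0.01 for Vsnl1 to 0.44 for Hpcal4, each with a p-adj of 0.960 or above. Without mice 16 and 55 the log2FC was 0.21 for Hpcal4, 0.0064 for Ncs1, -0.12 for Hpca, -0.098 for Vsnl1 and 0.33 for Ncald, again with none called.

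Over both activity groups, the mean of the 2 genotype contrasts called Pcp4 and Calb1. The log2FC was -0.88 ± 0.09 for Pcp4 (p-adj 0.00815, the smallest p of all genes) and -0.54 ± 0.08 for Calb1 (p-adj 0.0278). Of all genes 24 (0.118%) were DEGs in this comparison. Hpcal1 had a p-adj of 0.0181 but a log2FC of -0.49 ± 0.07, just inside the limit of 0.5. Without mice 16 and 55 the 2 genes changed places, with Hpcal1 at -0.50 (p-adj 0.000387) and Calb1 at -0.49 (p-adj 0.00600). Leaving out mouse 116, 117, 121, 122, 197, 198 or 201 ended the call of Calb1 (p-adj up to 0.144), and leaving out mouse 201 that of Pcp4 (p-adj 0.0505). Pvalb had a log2FC of -0.26 ± 0.11 and a p-adj of 0.4999. An unadjusted p under 0.05 was found for 4 of the 10 genes (Pcp4, Calb1, Hpcal1 and Pvalb), against 9.81% of all genes. In Pcp4, Calb1 and Hpcal1 all 6 SCA1 mice were below all 6 WT mice, as in 0.816% of all genes, and the two-sided exact permutation of genotype within activity groups gave p = 0.005 for each, the smallest it can give. Among mice 192 to 201, the only run of mouse numbers with all 4 groups, Pcp4 was at 10.7 and 11.3 CPM in SCA1 sedentary mice against 23.3 in the WT sedentary mouse, and at 13.5 in the SCA1 exercise mouse against 24.99 and 22.7 in WT exercise mice, and Calb1 and Hpcal1 kept the same direction in both activity groups there.

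**Figure D3:**
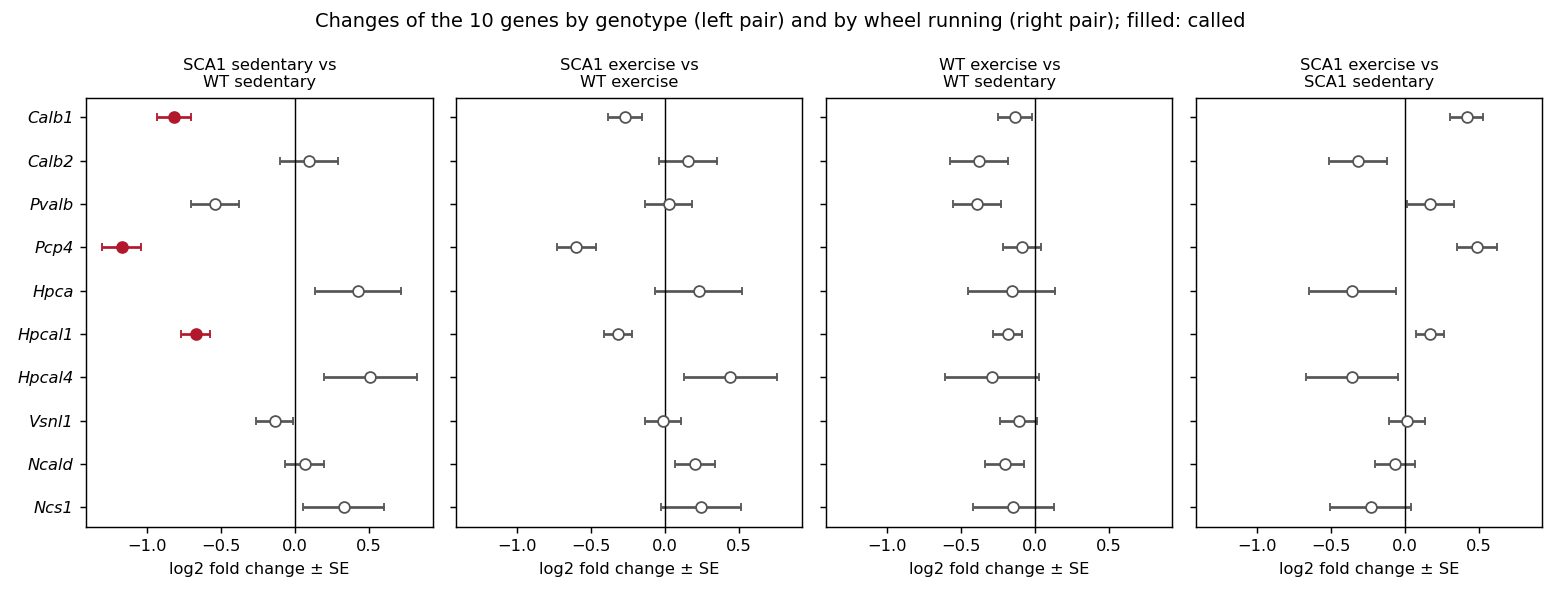
Log2 fold change ± SE (x axes) of the 10 genes (rows) in the 4 comparisons of 2 groups, with filled red points for DEGs. Pcp4, Calb1 and Hpcal1 were called in the first panel, were left of 0 with smaller values in the second and right of 0 in the fourth, and all 10 points of the third panel lay left of 0.

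Wheel running in WT mice left no DEG among the 10 or among all genes (0%). An unadjusted p under 0.05 was found for 955 genes (4.69%), and DESeq2 called 63. All 10 log2FCs were below 0, with a median of -0.17 against 0.00 over all genes. Without overlap, 6 of the 10 were lower in WT exercise than in WT sedentary mice (Calb2, Pvalb, Hpcal1, Vsnl1, Ncald and Ncs1), against 11.1% of all genes, and none was higher, against 10.1%. Pvalb was the member with an unadjusted p under 0.05, and its values of 279, 261 and 240.1 CPM in WT exercise stood against 386, 313 and 323 CPM in WT sedentary mice. Its log2FC was -0.39 ± 0.16 with a p-adj of 0.958, and its exercise mean was 76.3% of the sedentary mean. Calb2 had a log2FC of -0.37 ± 0.20, Ncald of -0.20 ± 0.13, Hpcal1 of -0.18 ± 0.10 and Ncs1 of -0.14 ± 0.27. Log2FCs below 0 were not particular to the 10 genes, and prevailed in the 4 lists of calcium signalling genes described below. Of further sensors 10 of 15 were below 0 (median -0.098), and of further EF-hand buffers 8 of 10 (-0.20). For calmodulin and its regulators this was 7 of 8 (-0.18), and for the kinases and calcineurin 10 of 12 (-0.064). All 4 oligodendrocyte markers were also below 0 in this comparison (median -0.45), with sums of 2170 to 2299 CPM in WT exercise and 2577 to 3324 CPM in WT sedentary mice, as were all 4 microglia markers (median -0.16). Their part in the values of the 10 genes was not tested. With 3 mice against 3 the exact permutation test cannot give a p below 0.1, which is the value of each of the 6 genes.

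In SCA1 mice, the comparison of exercise with sedentary mice again had no DEG among the 10 or among all genes (0%). Unadjusted p was under 0.05 for 441 genes (2.17%), and DESeq2 called 1. Calb1 and Pcp4 were the 2 members with such a p, and both were higher in every SCA1 exercise mouse than in every SCA1 sedentary mouse, against 2.43% of all genes. No member lay entirely lower, against 2.07%. Calb1 was at 466, 491 and 443 CPM with wheels and 315, 339 and 393 without, a log2FC of 0.42 ± 0.11 with a p-adj of 0.999. Pcp4 was at 18.02, 13.9 and 13.5 CPM with wheels and 10.4, 10.7 and 11.3 without, a log2FC of 0.49 ± 0.13 with a p-adj of 0.999. The exercise means were 75.9% of the WT sedentary mean for Calb1 and 62.4% for Pcp4, so both stayed below it. Without mice 16 and 55 the log2FC was 0.35 ± 0.12 for Calb1 and 0.32 ± 0.13 for Pcp4. Hpcal1 had a log2FC of 0.17 ± 0.10 and was at 0.03 ± 0.08 without these mice. Pvalb had a log2FC of 0.18 ± 0.16 and Calb2 of -0.31 ± 0.20, and the other 5 genes ran from -0.35 for Hpcal4 to 0.02 for Vsnl1.

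The interaction asked whether the difference between exercise and sedentary mice itself differed between genotypes. No member passed, and no gene did (0%), with 769 genes at an unadjusted p under 0.05 (3.78%) and 2 called by DESeq2. The members with an unadjusted p under 0.05 were Calb1 (0.55 ± 0.16 on the log2 scale), Pcp4 (0.57 ± 0.19), Hpcal1 (0.35 ± 0.13) and Pvalb (0.56 ± 0.23), all with a p-adj of 1.00. These are the 4 genes that were lower in SCA1 sedentary mice, and the comparisons share the sedentary mice.

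Markers of PCs outside the 10 genes were read beside these values. Of the 12, 11 were below 0 in SCA1 sedentary against WT sedentary mice, with a median log2FC of -0.49 against 0.02 over all genes and -0.03 over the 10. None was a DEG, and 11 had an unadjusted p under 0.05, against 10.1% of all genes. When mice 16 and 55 were left out, all 12 were below 0 with a median of -0.45, against -0.20 over the 10 genes. In that fit 5 of the 12 were DEGs, among 205 DEGs in all genes. They included Car8, Itpka, Pcp2 and Ppp1r17. With all mice kept, the 12 markers summed to 4710 to 6344 CPM in SCA1 sedentary and 7510 to 8485 in WT sedentary mice. With wheels the sums were 6132 to 7669 CPM in SCA1 and 7979 to 8482 in WT mice. The value of 4710 was mouse 16, beside 6344 and 5886 in mice 194 and 195, and that of 7669 was mouse 55. Itpr1 was the largest part of this sum, at 2754 CPM in mouse 16 and 4307 in WT sedentary mouse 116. The WT and SCA1 sedentary ranges of this sum were thus separate, as were those of Calb1, Pcp4, Hpcal1 and Pvalb. Separation was not particular to PC markers, and also held for the granule cell sums given below. The 12 genes for calmodulin-dependent kinases and calcineurin summed to 2547 to 2769 CPM in SCA1 sedentary and 2994 to 3272 in WT sedentary mice. Between SCA1 exercise and SCA1 sedentary mice 11 of the 12 were above 0, with a median of 0.27, and without mice 16 and 55 this was 10 of 12 with a median of 0.093. All 7 granule cell markers were below 0 in the sedentary comparison (median -0.42), and their sums were 5070 to 5084 CPM in WT sedentary and 2490 to 4823 CPM in SCA1 sedentary mice. The low end of that range was mouse 16, and without mice 16 and 55 only 5 of the 7 were below 0, with a median of -0.16, Pax6 at 0.25 and Fat2 at 0.014. Of the 6 markers of Bergmann glia and astrocytes 5 were below 0 (median -0.41), and without these mice all 6 (median -0.51), with Aldoc a DEG. The 8 interneuron and Golgi cell markers had a median of -0.07, and -0.040 without these mice. The 4 oligodendrocyte markers had a median of 0.17 and the 4 microglia markers of 0.11, which turned to -0.47 and -0.25 without them. Choroid plexus markers ranged from 6.64 to 1861 CPM in sum across the 12 mice, and were at 6.64 to 397 in WT sedentary and 786 to 1861 in WT exercise mice. The part of these cell types in the values of the 10 genes was not tested.

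**Figure D4:**
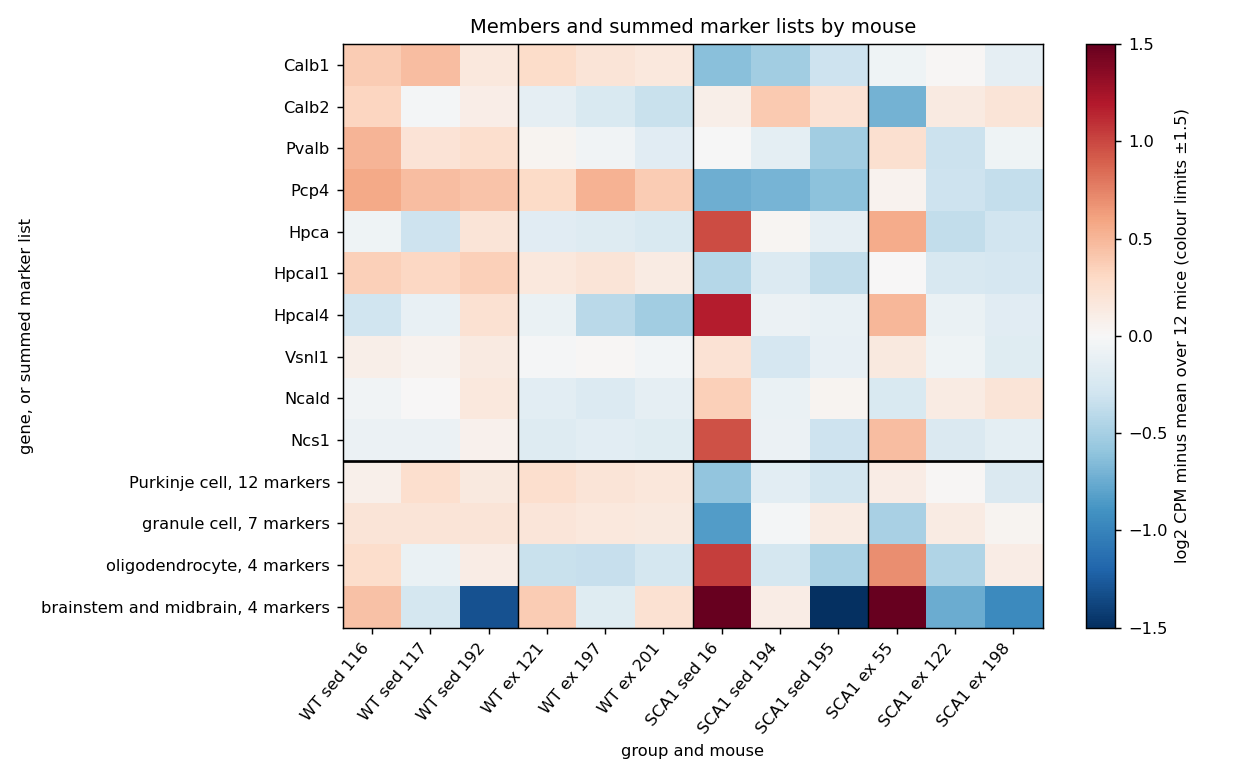
Log2 CPM minus its mean over the 12 mice (colour, limits ±1.5) for each of the 10 genes and for 4 summed marker lists (rows), by mouse and group (columns). Calb1, Pcp4 and Hpcal1 were blue in the 3 SCA1 sedentary mice, as was the PC marker sum, and the oligodendrocyte and brainstem sums were red in mice 16 and 55 together with Hpca, Hpcal4 and Ncs1.

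Other proteins of neuronal calcium signalling were counted from 4 lists. Of 16 further calcium sensors 15 passed the count filter (Guca1a did not), with 8 above and 7 below 0 in sedentary SCA1 against WT mice, a median of 0.13 and no DEG. Kcnip4, a sensor that binds Kv4 potassium channels, had the lowest log2FC of these at -0.78 ± 0.12 with a p-adj of 0.0532. Over both activity groups Kcnip4 was a DEG at -0.65 ± 0.08 (p-adj 0.0181), the only DEG of the 4 lists in any of the 6 comparisons. Necab2, an EF-hand protein of the synapse, had the highest at 1.30 ± 1.14 and did not pass. Of 12 further EF-hand buffers 10 passed the filter (Ocm and Scgn did not), 4 above and 6 below 0, from S100a10 at -0.35 ± 0.30 to Rcn1 at 0.88 ± 0.37, with no DEG. The 8 genes for calmodulin and its small regulators were evenly divided, 4 above and 4 below 0, from Calm2, a calmodulin gene, at -0.49 ± 0.12 (p-adj 0.219) to Pcp4l1, the paralog of Pcp4, at 0.63 ± 0.40 (p-adj 0.626). Of the 12 genes for calmodulin-dependent kinases and calcineurin 10 were below 0 and 2 above, with a median of -0.20, from Camkk2 at -0.44 ± 0.18 to Camk2a at 0.05 ± 0.33, and none was a DEG. Pcp4l1 was above 0 where Pcp4 was below it, and the difference between the paralogs was not tested. Mice 16 and 55 moved these lists. Without them the medians were -0.12 for the sensors, -0.25 for the buffers, -0.26 for calmodulin and its regulators and -0.22 for the kinases and calcineurin, and 9 of 15, 9 of 10, 7 of 8 and 12 of 12 were below 0. The log2FC was then -0.93 for Necab2, 0.32 for Rcn1, 0.10 for Pcp4l1 and -0.31 for Camk2a, none of them called. In sedentary mice Kcnip4 (-0.66 ± 0.11, p-adj 0.0128) and Kcnip1, another Kv4 partner, were among the 205 DEGs of that fit. Necab1 was among its 37 DEGs in exercise mice and was also a DEG over both activity groups.

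The genes with the most similar profile over the 12 mice were found among 11125 genes by the root mean square (RMS) difference of log2 CPM, each centred on its own mean. For Calb1 they were Ppp1r17, a phosphatase inhibitor of PCs (RMS 0.07), and Car8, a PC protein that binds the inositol trisphosphate receptor (0.08), against a median of 0.36 over all genes compared. For Hpcal1 they were Sema7a, a semaphorin, and Itpka, a kinase of inositol trisphosphate (both 0.09, median 0.32). Pcp4 had no comparably close gene, with Cep76 (a centriole protein) and Fam107b at 0.18 (median 0.51). Of these, Ppp1r17, Car8 and Itpka stood on the PC marker list. Pvalb was nearest to Dbi, an acyl-CoA-binding protein (0.09), and Ndufb4, a subunit of mitochondrial complex I (0.10, median 0.31). Ncs1 was nearest to Rnf157, a ubiquitin ligase (0.05), and Pnkd (0.07, median 0.37), and Vsnl1 to Amigo1, an adhesion protein (0.04), and Pogk (0.06, median 0.21). Hpca was nearest to Adgra1 and Sulf2 (both 0.09, median 0.41), and Hpcal4 to Arl10 (0.12) and Lrfn5 (0.14, median 0.46). Ncald was nearest to Ints5 and Mb21d2 (both 0.09, median 0.24), and Calb2 to Arhgef15 and Uncx (both 0.16, median 0.34). For Ncs1, Hpca and Hpcal4 the shared profile includes the high values of mice 16 and 55. These distances describe the 12 libraries and carry no test.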

How the data were processed

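Cerebellar RNA of 12 mice was depleted of ribosomal RNA and prepared as stranded libraries by the authors, who also wrote that all but 2 samples passed their limit on RNA integrity and that these 2 were fragmented and amplified differently. Which mice these were is not given in the sources used here. Per the labels, reads went through FastQC 0.11.9, fastp 0.24.0 and STAR 2.7.10a on GRCm39, and the annotation release is not given in the sources used here. The deposited values are raw counts per gene, unstranded and per strand, without normalization by the authors.

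Gene names and positions came from GENCODE M39, which held 56323 of the 56941 identifiers. Lines for unmapped, multimapped and unassigned reads were left out of library sizes. Reverse-strand counts were filtered with filterByExpr, scaled by TMM and fitted in edgeR 4.0.16 (R 4.3.3) as 1 quasi-likelihood model of the 4 groups, with 6 contrasts and adjustment over 20341 genes. Log2 CPM used a prior count of 2. Single genes were compared by two-sided exact permutation. DESeq2 1.42.0, RLE scaling, a minimum total count of 1, a minimum count of 10 in every library, unstranded counts, omitted mice, bands of mouse numbers (limits 100 and 150), chromosome Y expression, fits of 2 groups and no limit on log2FC were alternatives.

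All 10 genes were named in full, with the 2 nearest genes of each (average log2 CPM of at least 3). Of each list the DEGs and the highest and lowest log2FC in sedentary mice were named. The 10 genes and all lists were chosen with earlier results of these data known. Hoxb5, Pax6, Fat2, Slc6a5, Lgi2, Kit, Tfap2b, Itpr1, the genes called without mice 16 and 55 and those that failed the filter were named after their values were seen. Proteins, splicing and behaviour were not analysed here. Results of 2 further marker lists are not reported here.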

Additional observations from a re-analysis of the deposited data

How the results depend on the processing

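The number of DEGs in all genes moved more than the 10 genes did. For SCA1 sedentary against WT sedentary mice it was 7, and it was 201 with DESeq2, 76 with every gene of at least 1 count, 205 without mice 16 and 55, 55 with bands of mouse numbers, 1 with chromosome Y expression, 0 with the 2 groups alone and 0 to 42 with 1 mouse left out. The 3 calls among the 10 genes became 0 with chromosome Y expression or with the 2 groups alone, and 4 without mice 16 and 55. They were 0 without WT sedentary mouse 116 or 117, 1 without mouse 121, 197, 201, 122 or 198, 2 without mouse 192, 194 or 195, and 3 without mouse 16 or 55. Over its 21 alternatives Pcp4 was called in 17 (p-adj 8.36e-12 to 0.196), Calb1 in 11 (1.12e-07 to 0.339), Hpcal1 in 9 (9.98e-07 to 0.332) and Pvalb in 1 (0.0322 to 0.814). Unstranded counts gave Hpcal1 a p-adj of 0.0590.

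For SCA1 exercise against WT exercise mice the count was 0 and became 3 with DESeq2, 37 without mice 16 and 55, 3 with bands and 0 to 5 with 1 mouse left out, and the calls among the 10 became 1 without mice 16 and 55 and stayed 0 with 1 mouse left out. Over both activity groups it was 24 and became 179 with DESeq2, 125 with at least 1 count, 13 with unstranded counts, 142 without mice 16 and 55, 84 with bands and 0 to 63 with 1 mouse left out. The 2 calls among the 10 became 0 to 3 with 1 mouse left out, with 0 without mouse 201, 3 without mouse 55 or 194 and 1 without mouse 116, 117, 121, 122, 197 or 198. For WT exercise against WT sedentary mice 0 became 63 with DESeq2, 45 with at least 1 count, 64 without mice 16 and 55, 33 with bands, 150 with the 2 groups alone and 0 to 19 with 1 mouse left out. For SCA1 exercise against SCA1 sedentary mice 0 became 1 with DESeq2, and for the interaction 0 became 2 with DESeq2 and 0 to 1 with 1 mouse left out. With chromosome Y expression the log2FC over both activity groups was -0.54 for Calb1 (p-adj 0.0620, no longer called) and -0.52 for Hpcal1 (p-adj 0.0369, called). The causes were not tested.

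Direction turned in members with small changes. In sedentary mice, the log2FC without mice 16 and 55 was -0.034 for Hpcal4, -0.053 for Ncald and -0.14 for Ncs1, and with bands -0.048 for Hpca and -0.093 for Ncs1. In exercise mice it was -0.13 for Pvalb and -0.12 for Hpca without mice 16 and 55, -0.11 for Pvalb, -0.15 for Hpca and -0.082 for Ncs1 with bands, and 0.012 for Vsnl1 with unstranded counts. Over both groups Hpca was at -0.054 and Ncs1 at -0.067 without mice 16 and 55, and at -0.099 and -0.088 with bands. For exercise in SCA1 mice Ncald was at 0.19 and Ncs1 at 0.011 without mice 16 and 55. For the interaction Hpcal4 was at 0.24 and Ncs1 at 0.15 without them, and with bands Calb2 was at -0.058, Hpcal4 at 0.0046 and Ncs1 at 0.011. With 1 mouse left out the log2FC in sedentary mice ran from -0.0064 to 0.62 for Hpca, -0.054 to 0.71 for Hpcal4, -0.072 to 0.15 for Ncald and -0.16 to 0.54 for Ncs1. In exercise mice it ran from -0.13 to 0.13 for Pvalb, -0.12 to 0.36 for Hpca and -0.098 to 0.048 for Vsnl1. For exercise in SCA1 mice it ran from -0.69 to 0.081 for Hpca, -0.58 to 0.21 for Hpcal4, -0.067 to 0.16 for Vsnl1, -0.15 to 0.075 for Ncald and -0.46 to 0.26 for Ncs1. For the interaction it ran from -0.096 to 0.30 for Calb2, -0.55 to 0.24 for Hpca, -0.30 to 0.50 for Hpcal4 and -0.32 to 0.41 for Ncs1. Calb1, Pcp4 and Hpcal1 kept their direction under every alternative in each of the 6 comparisons. Of 1240 alternative values of the 10 genes, 1145 kept their direction and their side of the threshold, 51 turned, 7 gained a call and 37 lost one. Most belong to results not called in the main model, for which staying uncalled counts as kept, so the total does not measure how stable the calls were. In sedentary mice the calls held in 11 of 21 alternatives for Calb1, 17 for Pcp4 and 9 for Hpcal1. Over both activity groups they held in 10 of 20 for Calb1 and 19 for Pcp4. No paired analysis was possible because the groups share no mouse numbers. Counting error weighs most on Pcp4, with 235 to 813 reads per library.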
